A study of Mus musculus with 12 samples.

Results

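Mouse hippocampal slices kept 2 h in an ischemic solution (IS) that also contained DIDS were compared with slices kept 2 h in artificial cerebrospinal fluid (ACSF) alone, to find the genes that remained away from the untreated level when DIDS was present during ischemia. The members of this comparison were chosen by their titles: 5 of the 9 distinct arrays among the 12 deposited array files, of which 3 were Control ACSF (1, 2 and 3) and 2 were IS + DIDS (2 and 3). All slices were organotypic cultures, slices of hippocampus maintained in a dish, from C57BL/6J mice of mixed gender, with no genetic change named, and their age and any pooling are not given in the sources used here. IS 1 and 3 (ischemic solution without DIDS) and ACSF + DIDS 2 (DIDS in ACSF) are the other arrays used, also after 2 h. The labels give neither the composition of the ischemic solution nor the dose of DIDS, and they do not say whether replicates came from separate cultures, so p-values measure only the spread between these arrays.

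The arrays were Illumina Mouse-6 v1.1 BeadChips, on which each probe is read as the mean brightness of its beads. Of the 9 arrays, Control ACSF 1, Control ACSF 2 and IS 1 were on 1 chip, and Control ACSF 3, both IS + DIDS arrays, IS 3 and ACSF + DIDS 2 and 3 were on the second. The difference from Control ACSF 3, the control on the same chip, is therefore given beside the group differences. The file titled IS + DIDS 1 held the same signals as IS + DIDS 3, and the file titled IS + DIDS 2 the same as ACSF + DIDS 1, and each was counted once. The authors' value table, normalized by a method not given in the sources used here, held 12 distinct columns. Its columns titled IS + DIDS 2 and IS + DIDS 3 matched those 2 files (Spearman correlation across probes of at least 0.9969), while its column IS + DIDS 1 matched no file (at most 0.96), so the table held an IS + DIDS array that no file holds. The description of ACSF + DIDS 2 names IS with DIDS, against its title, and the title was followed. Raw median signal was 69.5 to 131.9, with 15291 to 16614 probes detected on each array.

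DIDS belongs to the stilbene disulfonates and inhibits many anion channels and exchangers, among them chloride and bicarbonate transporters. Immediate early genes encode transcription factors, such as the EGR, JUN, FOS and KLF families, that neurons and glia transcribe within minutes to hours of activity, growth factors or injury. Slices in culture hold neurons, astrocytes, microglia and oligodendrocytes, and injury or cutting can raise the inflammatory genes of the glia. In bulk RNA, fewer cells of a type and less RNA per cell cannot be told apart.

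Of 17115 probes tested, 230 (1.34%) differed between IS + DIDS and Control ACSF in a limma fit with Benjamini-Hochberg adjusted p under 0.05. The falls were larger than the rises: 143 probes (0.836%) were lower, with a median log2 difference of -0.75, and 87 (0.508%) were higher, with a median of 0.49. A difference of at least 2-fold was seen in 37 of the lower probes and in 1 of the higher. The fall of the lower probes against Control ACSF 3 alone had a median of -0.68, and the rise of the higher probes 0.48, both close to the group differences. The probes were picked by the group difference, and Control ACSF 3 is 1 of its 3 controls. This closeness therefore does not test the calls within the chip. The 2 IS + DIDS arrays lay outside the range of the 3 controls for all 230 probes, as for 40.5% of all tested probes, and all 230 differed from Control ACSF 3 in the same direction, as 77.7% of all probes did. Another scaling moved the split, which was 36 higher and 201 lower without background correction and 16 higher and 64 lower with median centring. With chip as a block 122 probes passed (0.713%), of which 69 were among the 230, and 6 of the 12 named falls and 1 of the 12 named rises described here were past the threshold. The count rested on single arrays: it was 7 without Control ACSF 1, 12 without Control ACSF 2, 0 without IS + DIDS 2 and 4 without IS + DIDS 3.

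**Figure D1:**
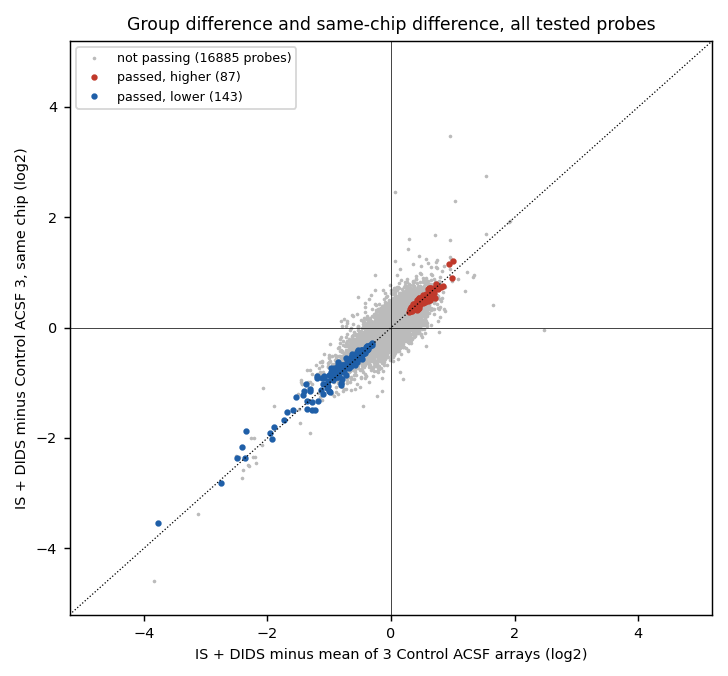
Each point is 1 of the 17115 tested probes, with the log2 difference of IS + DIDS from the mean of the 3 Control ACSF arrays on the x axis and from Control ACSF 3 alone on the y axis. Blue points are the 143 lower and red points the 87 higher probes, and all of them lie on the same side of 0 on both axes, near the dotted line of equal values.

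Gene names could be given to 85 of the 230 probes, 59 lower and 26 higher, each for a different gene. Among the lower genes were 5 that encode inducible transcription factors, Egr2, Junb, Fosl2, Klf6 and Cebpb. Egr2, a zinc-finger factor induced by neuronal activity and needed for myelination in peripheral nerve, had log2 intensities of 9.92, 10.72 and 9.93 in Control ACSF 1, 2 and 3 and of 7.78 and 7.77 in IS + DIDS 2 and 3. Both IS + DIDS arrays were far below all controls and equal to each other within 0.01. Their values were near background, where the processing compresses differences, so this closeness does not measure agreement between the arrays. The difference was -2.42 ± 0.27 (SE, limma, n = 2 and 3), or 5.34-fold lower, with an adjusted p of 0.0333, and -2.16 against Control ACSF 3. In the authors' value table the difference was -3.16. Egr2 was also low in ischemic solution alone, at 8.44 in IS 1 and 8.10 in IS 3, and was at 10.65 in ACSF + DIDS 2.

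Junb, a subunit of the AP-1 factor, was at 10.97, 11.26 and 11.03 in the controls and at 9.44 and 9.29 in IS + DIDS 2 and 3. Every other array lay above both IS + DIDS arrays, with 11.83 and 11.09 in IS 1 and 3 and 11.40 in ACSF + DIDS 2. Junb fell by 1.73 ± 0.22 on the log2 scale (limma adjusted p = 0.0358), or 3.31-fold, and differed by -1.67 from Control ACSF 3. Fosl2, another AP-1 subunit, was at 10.19, 10.39 and 9.78 in the controls, 8.69 and 8.82 in IS + DIDS, 9.20 and 9.25 in IS, and 10.09 in ACSF + DIDS 2. It was thus lower in both IS groups than in the arrays without ischemic solution. Its difference of -1.37 ± 0.18 passed with an adjusted p of 0.0358 (limma) and was -1.03 against Control ACSF 3.

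Klf6, a KLF-family factor induced by injury, was among the brightest of these probes, at 12.96, 13.19 and 12.77 in the controls and 11.54 and 11.56 in IS + DIDS 2 and 3. Its values in IS (12.54 and 12.23) and in ACSF + DIDS 2 (12.31) lay between them. Klf6 fell by 1.42 ± 0.14 (limma adjusted p = 0.0333), and by 1.22 against Control ACSF 3. Cebpb, a leucine-zipper factor of inflammatory and stress responses, was at 11.46, 11.75 and 11.39 in the controls and 9.96 and 9.75 in IS + DIDS 2 and 3. The IS arrays, at 12.14 and 11.39, were at the control level or above, and ACSF + DIDS 2 was at 10.48. The difference from control was -1.68 ± 0.23 (limma adjusted p = 0.0428) and -1.53 from Control ACSF 3.

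**Figure D2:**
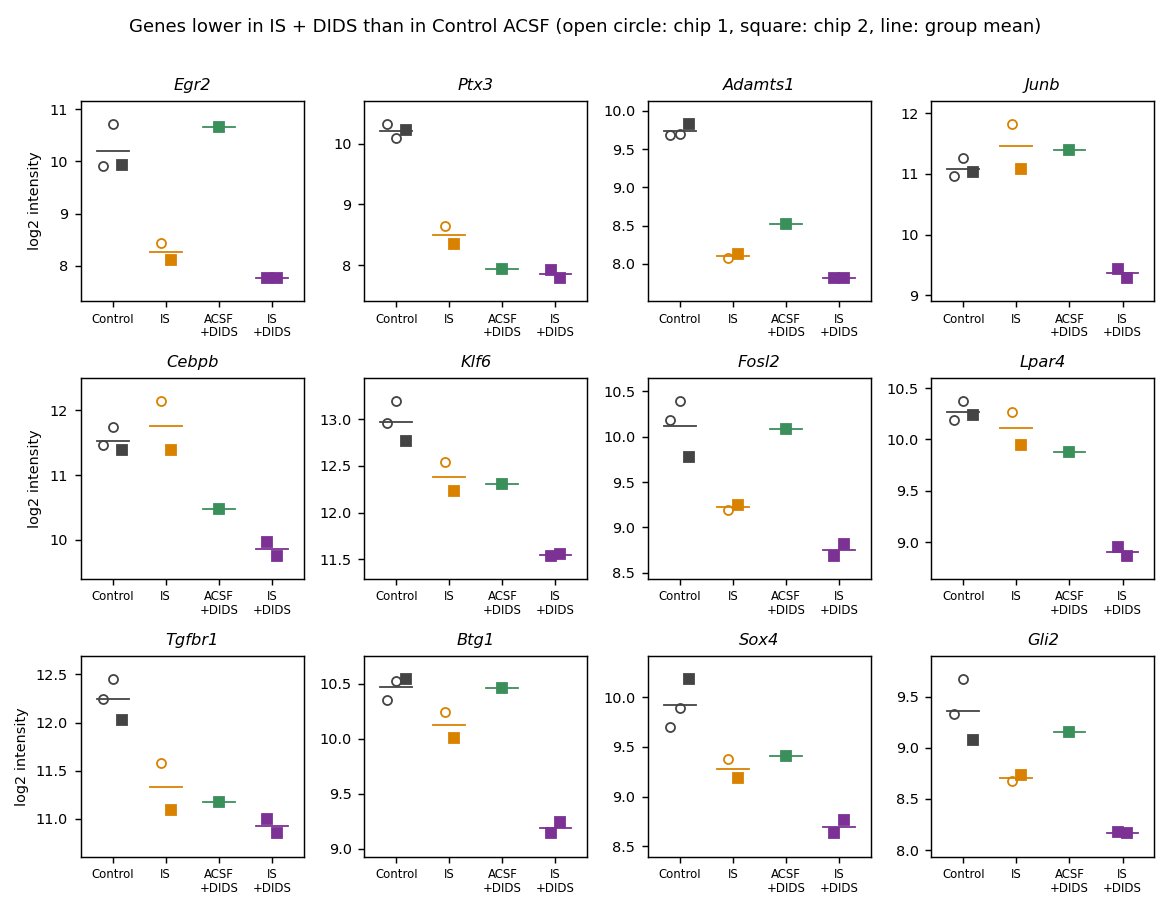
Log2 intensity (y axis, a separate scale for each gene) of the 12 named genes that were lowest in IS + DIDS against Control ACSF, with 1 point per array and a line at the group mean. Open circles are arrays of the first chip and squares arrays of the second, and in every panel both IS + DIDS arrays lie below all 3 Control ACSF arrays.

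The stretch of 250 bases before the transcription start is shown for 4 of the strongest named falls, picked for the motifs they hold or lack, because promoters of inducible genes often carry short motifs for signal-regulated factors. The sequences are RefSeq's for GRCm38.p6, read 5' to 3' on the gene's strand, and capitals mark the motif letters found on either strand. For Egr2, whose table has 5 start sites, the third is shown, and the capitals mark a CArG box, the motif that serum response factor binds. In Fosl2 they mark an NF-kB motif, and in Klf6 the letters ACGTG, the core of the hypoxia response element. The last 2 matches read on both strands and overlap themselves. Adamts1 held none of the motifs searched.
Egr2 (chr10:67537619-67537868, plus strand): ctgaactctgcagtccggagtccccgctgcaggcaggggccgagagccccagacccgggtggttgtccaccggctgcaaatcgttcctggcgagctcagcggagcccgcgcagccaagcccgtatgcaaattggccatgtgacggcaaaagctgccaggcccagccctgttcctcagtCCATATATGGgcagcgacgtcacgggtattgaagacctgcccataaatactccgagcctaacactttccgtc
Fosl2 (chr5:32136222-32136471, plus strand): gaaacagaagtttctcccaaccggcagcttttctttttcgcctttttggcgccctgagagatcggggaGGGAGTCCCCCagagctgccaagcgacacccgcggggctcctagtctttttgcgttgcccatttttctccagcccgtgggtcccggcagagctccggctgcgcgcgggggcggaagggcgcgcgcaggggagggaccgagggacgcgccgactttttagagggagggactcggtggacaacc
Klf6 (chr13:5861239-5861488, plus strand): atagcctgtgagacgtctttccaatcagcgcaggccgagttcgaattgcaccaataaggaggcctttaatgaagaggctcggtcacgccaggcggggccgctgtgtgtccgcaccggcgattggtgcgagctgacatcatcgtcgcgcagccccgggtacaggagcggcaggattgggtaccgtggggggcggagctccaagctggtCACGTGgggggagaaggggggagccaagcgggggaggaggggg
Adamts1 (chr16:85803114-85803363, minus strand): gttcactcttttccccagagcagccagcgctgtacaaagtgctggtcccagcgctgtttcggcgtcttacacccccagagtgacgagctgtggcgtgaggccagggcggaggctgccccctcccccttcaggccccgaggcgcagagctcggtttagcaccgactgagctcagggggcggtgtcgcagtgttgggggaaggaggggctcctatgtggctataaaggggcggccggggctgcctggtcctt

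Several motifs were searched in that window, by name for the CArG box and NF-kB, and with the letters TGACGTCA for the cAMP response element, TGANTCA for AP-1 and ACGTG for the hypoxia response element core. Of the 52 lower genes with a promoter in the table, 2 held the cAMP response element (3.85%, against 3.26% of the 3590 tested genes), 3 held AP-1 (5.77% against 5.21%) and 1 the CArG box (1.92% against 1.45%). NF-kB motifs stood in 7 (13.5% against 10.9%) and the ACGTG core in 11 (21.2% against 24.9%). Over all 27025 genes of the table the shares were 1.77%, 7.82%, 1.62%, 8.23% and 18.5% in the same order. These shares describe letters in a window and not sites of binding.

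A second group of falls encoded proteins that act outside the cell. Ptx3, a secreted pattern-recognition protein of innate immunity, was at 10.33, 10.09 and 10.22 in the controls and 7.92 and 7.79 in IS + DIDS 2 and 3. Every treated array was below every control, since Ptx3 was at 8.64 and 8.35 in IS and 7.94 in ACSF + DIDS 2. The difference between IS + DIDS and control was -2.36 ± 0.11, or 5.13-fold (limma adjusted p = 0.00511), and -2.37 against Control ACSF 3. The IS + DIDS values of Ptx3 were also near background, and its difference in the authors' value table was -2.98.

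Adamts1, a secreted protease that cleaves proteoglycans, had the smallest adjusted p of all tested probes. It was at 9.69, 9.70 and 9.83 in the controls and 7.82 in both IS + DIDS arrays. The IS arrays (8.07 and 8.13) and ACSF + DIDS 2 (8.52) lay in between, all below the controls. Adamts1 fell by 1.92 ± 0.06 (limma adjusted p = 0.00147), which is 3.79-fold, and by 2.01 against Control ACSF 3. Both IS + DIDS values lay near background, where compression also narrows the spread between arrays. In the authors' value table Adamts1 differed by -2.59 from control. It was past the threshold in 23 of 28 alternative settings, and so was Ptx3.

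The remaining 5 of the 12 strongest named falls were receptors and regulators of growth. Lpar4, a receptor for lysophosphatidic acid, was at 10.19, 10.37 and 10.24 in the controls and 8.95 and 8.87 in IS + DIDS 2 and 3, with 10.27 and 9.94 in IS and 9.88 in ACSF + DIDS 2. Only the IS + DIDS arrays among the 8 were below 9.8. Its difference was -1.35 ± 0.11 (limma adjusted p = 0.0236) and -1.33 against Control ACSF 3. Tgfbr1, the type I receptor for TGF-beta, was at 12.24, 12.45 and 12.03 in the controls and 11.00 and 10.85 in IS + DIDS, beside 11.58 and 11.09 in IS and 11.18 in ACSF + DIDS 2. All treated arrays were again below all controls. Tgfbr1 fell by 1.31 ± 0.18 (limma adjusted p = 0.0412), and differed by -1.11 from Control ACSF 3.

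Btg1, an antiproliferative protein, was at 10.35, 10.52 and 10.54 in the controls and 9.14 and 9.25 in IS + DIDS. It was at 10.24 and 10.01 in IS and 10.46 in ACSF + DIDS 2. The array titled both IS 2 and ACSF + DIDS 3, left out of the fit, was lower, at 9.42. In the value table, columns ACSF + DIDS 1, 2 and 3 were at 10.02, 10.64 and 9.76, against a control mean of 10.65. The difference of IS + DIDS from control was -1.28 ± 0.10 (limma adjusted p = 0.0209), and -1.35 against Control ACSF 3. A second Btg1 probe differed by -0.83 and did not pass (adjusted p = 0.0907). Sox4, a factor of progenitor cells, fell by 1.23 ± 0.15 (limma adjusted p = 0.0333; 1.49 against Control ACSF 3), from 9.70, 9.89 and 10.18 to 8.63 and 8.76. Gli2, a transcription factor of the hedgehog pathway, fell by 1.19 ± 0.17 (limma adjusted p = 0.0417; 0.91 against Control ACSF 3), from 9.33, 9.67 and 9.08 to 8.18 and 8.16. In neither gene did the groups overlap, and in both the IS arrays lay between them.

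The rises were smaller, and none of the 12 named reached 2-fold. Smc5, a component of a complex that maintains chromosomes, was at 8.49, 8.65 and 8.70 in the controls and 9.43 and 9.48 in IS + DIDS 2 and 3, with 8.76 and 9.13 in IS and 8.99 in ACSF + DIDS 2. Both IS + DIDS arrays were the highest of the 8. It rose by 0.84 ± 0.12, or 1.78-fold (limma adjusted p = 0.0461), and by 0.75 against Control ACSF 3. Zbtb17, the transcription factor known as MIZ1, was at 9.19, 9.21 and 9.30 in the controls and 9.92 and 10.08 in IS + DIDS, a rise of 0.77 ± 0.06 (limma adjusted p = 0.0236; 0.70 against Control ACSF 3). Its IS values of 9.57 and 9.59 and its ACSF + DIDS value of 9.74 lay between the groups.

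Rit1, a RAS-related GTPase, rose by 0.76 ± 0.09 (limma adjusted p = 0.0333; 0.74 against Control ACSF 3), from 10.35, 10.59 and 10.49 to 11.32 and 11.15. The mitochondrial genes were Ssbp1, which encodes the single-stranded DNA-binding protein of mitochondria, and Mterf4, which takes part in assembly of the mitochondrial ribosome. Ssbp1 was at 9.86, 9.89 and 9.80 in the controls and 10.49 and 10.52 in IS + DIDS, a rise of 0.66 ± 0.07 (limma adjusted p = 0.0333; 0.70 against Control ACSF 3). A second, dimmer Ssbp1 probe near background differed by 0.02. Mterf4 was at 9.87, 10 and 9.92 in the controls and 10.47 and 10.60 in IS + DIDS, a rise of 0.61 ± 0.06 (limma adjusted p = 0.0333; 0.62 against Control ACSF 3), and at 9.88 in ACSF + DIDS 2.

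Nono, a paraspeckle protein, rose by 0.56 ± 0.07 (limma adjusted p = 0.0333; 0.52 against Control ACSF 3), from 9.05, 9.17 and 9.18 to 9.62 and 9.77. It was at 9.05 and 9.02 in IS and 9.21 in ACSF + DIDS 2, so only the 2 IS + DIDS arrays were above 9.3. Aptx, a DNA repair enzyme, gave the same picture, with 9.12, 9.09 and 9.12 in the controls, 9.58 and 9.78 in IS + DIDS and at most 9.25 in the other arrays. Col6a1, a collagen chain, was at 8.51, 8.37 and 8.37 in the controls, 8.95 and 8.91 in IS + DIDS and 9.06 and 9.11 in IS. Its rise of 0.51 ± 0.06 (limma adjusted p = 0.0333; 0.56 against Control ACSF 3) stood beside IS values that were higher still. The other 4 of the 12 were Ist1, of the ESCRT membrane machinery, Ube2z, a ubiquitin-conjugating enzyme, Akap8l, a nuclear anchoring protein, and the long noncoding RNA Chaserr, with rises of 0.70, 0.59, 0.57 and 0.50 (0.53, 0.48, 0.60 and 0.51 against Control ACSF 3) and adjusted p from 0.0333 to 0.0451 (limma). A second, brighter probe of Chaserr differed by 0.40 and did not pass (adjusted p = 0.151).

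**Figure D3:**
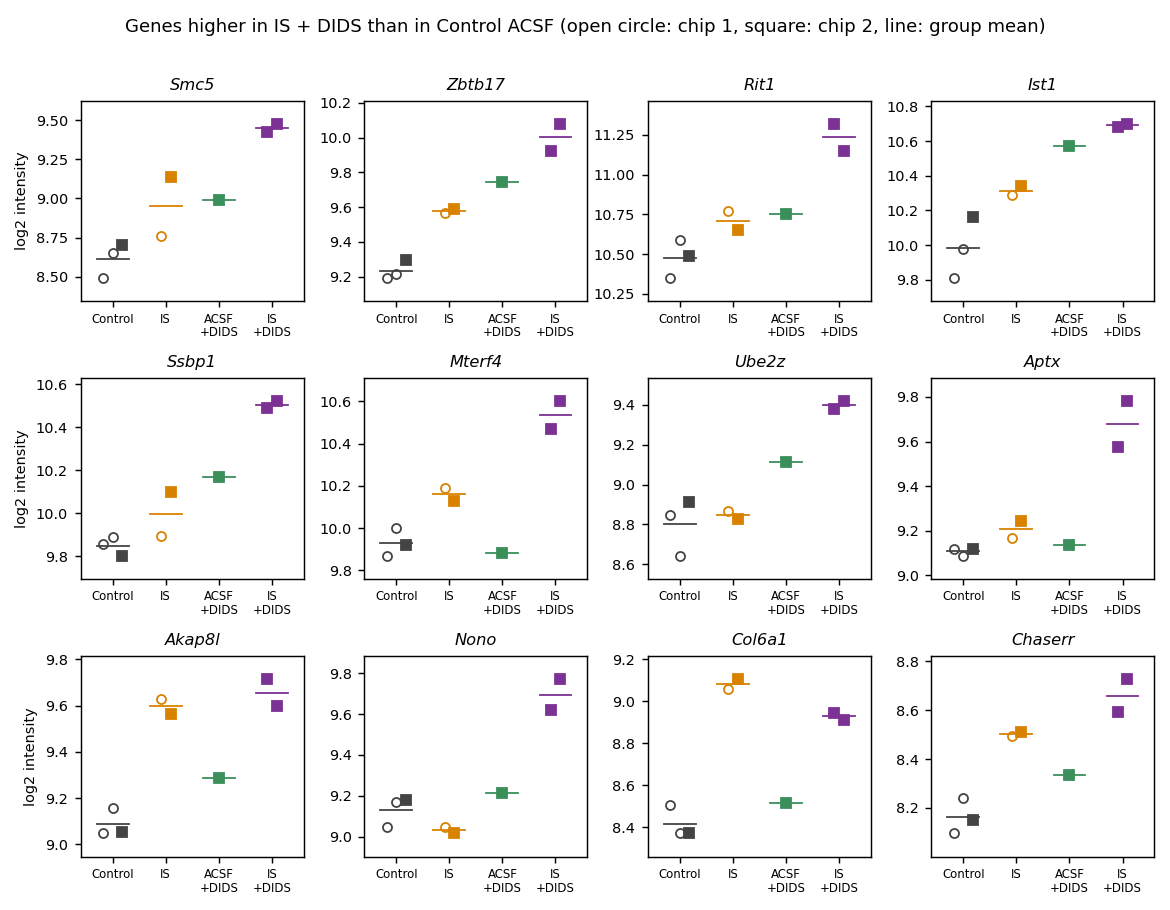
Log2 intensity (y axis, a separate scale for each gene) of the 12 named genes that were highest in IS + DIDS against Control ACSF, drawn as in the plot of the lower genes. In every panel both IS + DIDS arrays lie above all 3 Control ACSF arrays, by less than 1 log2 unit between the means.

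The array titled IS + DIDS 1 could be read only in the authors' value table, where columns IS + DIDS 1, 2 and 3 could be set against the 3 control columns on the log2 scale. There, 802 of 17109 probes passed (4.69%, limma), 569 lower (3.33%) and 233 higher (1.36%). All 230 probes described above had the same direction there and 152 of them passed, but both fits share the 3 controls and 2 of the IS + DIDS arrays. Egr2 was at 7.47, 7.17 and 7.12 in columns IS + DIDS 1, 2 and 3 against 10.41 ± 0.40 (SD, n = 3) in the controls. Ptx3 was at 7.34, 7.73 and 7.23 against 10.41 ± 0.11, and Adamts1 at 7.56, 7.38 and 7.35 against 10.03 ± 0.11. For these 3 genes column IS + DIDS 1 was about as low as the other two. All 12 of the strongest named falls passed in the table, and 7 of the 12 rises did. Column IS + DIDS 1 stood apart from the other 11 on the first principal component (50.8, against -17.9 to 8.95), and 720 probes passed without it. The table's count was 313 without Control ACSF 1, 267 without Control ACSF 2, 463 without IS + DIDS 2 and 411 without IS + DIDS 3.

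The value table allowed the difference to be read in 2 sets of columns with no array in common: IS + DIDS 1 against Control ACSF 1 and 2, and IS + DIDS 2 and 3 against Control ACSF 3. The chip of column IS + DIDS 1 is not recorded, so only the second set is known to lie within 1 chip. Across the 17109 probes, which are not independent replicates, the 2 differences correlated with 0.46 (Pearson) and 0.44 (Spearman). Of 135 probes at least 2-fold lower in the second set, 78 (57.8%) were at least 2-fold lower in the first, against 4.16% of all probes. Of 61 probes at least 2-fold higher in the second set, 5 (8.2%) were so in the first, against 0.497% of all. Among single genes, Btg1 was at -2.62 in the first set and -1.18 in the second, and Fosl2 at -1.92 and -0.95. Lpar4 showed the reverse, with -0.21 and -1.16, and so did Sox4, with -0.33 and -1.34. Smc5 and Zbtb17, the largest named rises, were at -0.23 and -0.03 in the first set and 0.69 and 0.59 in the second, so column IS + DIDS 1 did not show them. Rit1 (0.66 and 0.67), Ssbp1 (0.50 and 0.58) and Nono (0.43 and 0.42) had similar values in both sets.

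**Figure D4:**
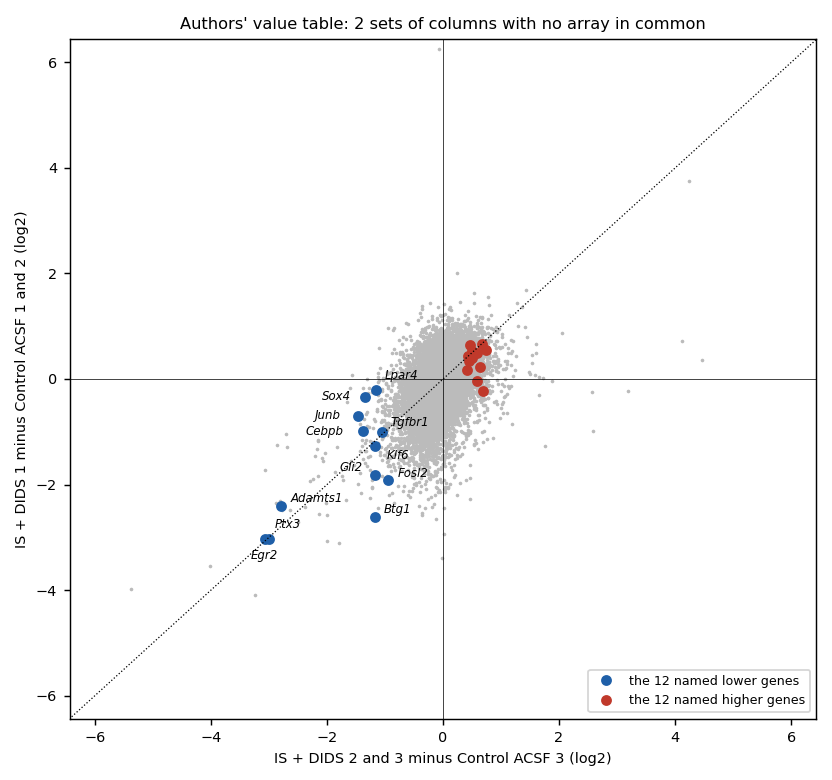
Log2 differences in the authors' value table, with IS + DIDS 2 and 3 minus Control ACSF 3 on the x axis and IS + DIDS 1 minus the mean of Control ACSF 1 and 2 on the y axis, for 17109 probes (grey), the 12 named lower genes (blue) and the 12 named higher genes (red). All blue points lie in the lower left, with both differences below 0, and 10 of the 12 red points in the upper right. The named genes were picked on IS + DIDS 2 and 3 and all 3 controls, with the same direction against Control ACSF 3 required. Their places are therefore not a separate test.

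Several genes that stood far from control in IS alone were read in IS + DIDS as well. The IS and IS + DIDS comparisons share the same control arrays, so the values are given side by side. Ccn1, a matricellular protein and target of the YAP and serum response pathways, was at 8.53, 8.57 and 8.63 in the controls and 8.64 and 8.74 in IS + DIDS, beside 10.37 and 10.60 in IS and 8.72 in ACSF + DIDS 2. In both IS + DIDS arrays the value was at most 0.11 above the highest control, and the difference of 0.11 ± 0.08 did not pass (limma adjusted p = 0.524). In the value table, column IS + DIDS 1 held Ccn1 at 9.378, further above its control columns (8.935, 8.981 and 9.016). Ccrl2, a chemokine-binding receptor, was at 7.76 and 7.74 in IS + DIDS, below its control values of 7.89 to 8.09, beside 12.88 and 10.29 in IS. Arrdc3, an arrestin-domain protein, was at 10.10 and 9.81 in IS + DIDS against 9.65, 9.96 and 9.63 in the controls and 11.22 and 11.12 in IS. Neither the Ccrl2 nor the Arrdc3 difference from control passed (limma adjusted p = 0.904 and 0.491). For Ccrl2 the difference was -0.23 with an SE of 0.70. That SE carries the spread between the 2 IS arrays (SD 1.84), so its adjusted p does not measure closeness to control. In column IS + DIDS 1 of the value table, Ccrl2 was at 8.021, within its control range there of 7.726 to 8.225.

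Neat1, the long noncoding RNA that builds paraspeckles, was at 13.44 and 13.39 in IS + DIDS, above 12.56, 13.01 and 11.82 in the controls and below 13.82 and 14.03 in IS. The difference of 0.95 ± 0.33 did not pass (limma adjusted p = 0.212), with controls that spread over more than 1 log2 unit, and it was 1.60 against Control ACSF 3. In the value table, IS + DIDS 1 minus Control ACSF 1 and 2 was 0.30. Klf4, a KLF-family factor, was not above background in either IS + DIDS array (7.65 and 7.66) and at 8.06, 7.995 and 8.32 in the controls, which makes it at least 1.31-fold lower, with no pass (limma adjusted p = 0.168). It was at 9.08 and 8.70 in IS. In the value table, which is spread wider at low signal, Klf4 was at 6.49 ± 0.10 in IS + DIDS, 8.26 ± 0.34 in the controls and 9.28 ± 0.14 in IS (SD, n = 3 each). Its adjusted p there was 0.000117, and over 27 alternatives it ran from that value to 0.838.

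Nr4a2, an orphan nuclear receptor induced by activity, was at 8.48 and 8.99 in IS + DIDS and 8.34, 8.57 and 8.82 in the controls, which overlap, while it was at 10.94 in ACSF + DIDS 2. Slc4a4, the sodium bicarbonate cotransporter of astrocytes and a transporter that DIDS blocks, was at 9.43 and 9.07 in IS + DIDS and 10.63, 10.70 and 10.28 in the controls, with 11.25 and 10.72 in IS and 9.84 in ACSF + DIDS 2. Both IS + DIDS arrays were below all others, but the difference of -1.29 ± 0.21 missed the threshold (limma adjusted p = 0.0598; -1.03 against Control ACSF 3), and column IS + DIDS 1 of the value table, at 10.77, was within the range of the controls there. Rasgrp3, an activator of RAS, was at 9.27 and 8.91 in IS + DIDS, 8.90 and 8.73 in IS and 10.45, 10.51 and 9.93 in the controls, and missed the threshold too (-1.21 ± 0.21, limma adjusted p = 0.0616; -0.84 against Control ACSF 3). Column IS + DIDS 1 of the value table held Rasgrp3 at 10.32, again within the range of the controls there (10.20 to 10.69).

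Gene lists were described by counts over their tested genes, each read at its brightest probe, beside all 4470 named genes, of which 0.559% passed upward and 1.21% downward, 56.06% lay above control and the median difference was 0.02. Lists could be read only in part. For example, 10 of 41 immediate early genes, 4 of 28 endoplasmic reticulum stress genes and 4 of 22 serum response genes were tested. Of the 10 immediate early genes tested, 4 passed as lower (Klf6, Egr2, Junb and Fosl2) and none as higher. In all, 7 lay below control and 3 above, and the median was -0.48 (-0.52 against Control ACSF 3). Over 5 other scalings or fits the median ran from -0.83 to -0.40. Sgk1, Klf4, Nr4a2, Nr4a3, Rgs2 and Klf2 did not pass, with Nr4a2 the highest at 0.16. Of 9 cytokine, chemokine and innate immune genes all lay below control in the fit without a block, 1 passed (Ptx3), and the median was -0.35. With chip as a block the median was -0.0995, and Ccrl2, Ptgs2, Cxcl2 and Ptgs1 lay above control, none past the threshold. Vcam1, an adhesion molecule, differed by -0.79 (limma adjusted p = 0.0605; -0.90 against Control ACSF 3), and Ccl2, a monocyte chemokine not above background in either IS + DIDS array, lay at least 1.5-fold lower (limma adjusted p = 0.0782; -0.56 against Control ACSF 3). Of the 9, 5 passed downward in the value table, Vcam1 and Ccl2 among them.

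Cxcl1, a neutrophil chemokine, belongs to that list and is named because of its values, which were seen first. It was at 11.16, 11.25 and 12.35 in the controls and 7.77 and 7.75 in IS + DIDS 2 and 3. Its values in the other arrays were 13.00 in IS 1, 9.73 in IS 3 and 9.22 in ACSF + DIDS 2. The difference of -3.83 ± 0.95 was the largest of any named gene on the list and did not pass (limma adjusted p = 0.115; -4.60 against Control ACSF 3), with the 2 IS arrays 3 log2 units apart. In the value table it was at 7.33, 7.09 and 6.98 in IS + DIDS against 11.68 ± 0.64 (SD, n = 3), a difference of -4.54 with an adjusted p of 0.00133, and with chip as a block in the array files the adjusted p was 0.228.

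Other lists held single passing genes. Bcl2, an inhibitor of apoptosis, was the 1 of 11 apoptosis and p53 genes that passed, at 8.94, 9.14 and 8.87 in the controls and 8.11 and 8.10 in IS + DIDS (-0.88 ± 0.10, limma adjusted p = 0.0333; -0.77 against Control ACSF 3). It stayed at 8.97 and 8.78 in IS and 8.76 in ACSF + DIDS 2. Homer2, a postsynaptic scaffold, was the 1 of 14 glutamate genes that passed, at 10.21, 10.24 and 10.57 in the controls and 9.45 and 9.60 in IS + DIDS (-0.82 ± 0.12, limma adjusted p = 0.0494; -1.05 against Control ACSF 3). Rora, an orphan nuclear receptor that drives Bmal1 in the clock, was at 10.78, 10.86 and 10.50 in the controls and 9.57 and 9.62 in IS + DIDS, beside 11.09 and 11.02 in IS (-1.12 ± 0.11, limma adjusted p = 0.0316; -0.91 against Control ACSF 3). It was among 2 of 10 circadian and nuclear receptor genes that fell. Cebpb was the 1 of 4 endoplasmic reticulum stress genes and Adamts1 the 1 of 6 matrix protease and inhibitor genes that fell, and Nono the 1 of 36 splicing and paraspeckle genes that rose.

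The hypoxia and glycolysis list gave no call, although 12 of its 13 tested genes lay above control. Its median difference was 0.30, but 0.15 against Control ACSF 3, and 0.10 with chip as a block. Egln3, a hypoxia-induced prolyl hydroxylase, was at 8.70, 8.61 and 8.36 in the controls, 9.42 and 9.08 in IS + DIDS and 9.04 and 9.15 in IS (0.69 ± 0.14, limma adjusted p = 0.0837; 0.89 against Control ACSF 3). Ldha, lactate dehydrogenase A, was at 13.61, 13.62 and 13.52 in the controls and 13.89 and 13.87 in IS + DIDS (0.30 ± 0.07, limma adjusted p = 0.102; 0.37 against Control ACSF 3). Of 26 oxidative phosphorylation genes 22 lay above control with a median of 0.08, and of 64 cytosolic ribosomal protein genes 42, with a median of 0.04. No gene passed in either list, nor among 10 heat shock and chaperone genes, 10 of MAP kinase feedback, 13 of chloride and bicarbonate transport, 11 of oxidative stress, 26 of the proteasome, 21 of synaptic vesicles, 22 of voltage-gated channels, 16 of cholesterol synthesis, 4 of GABA transmission or 4 of the serum response. In MAP kinase feedback, Dusp16, a phosphatase of JNK and p38, was the nearest to the threshold, at 8.70 and 8.58 in IS + DIDS against 9.80, 9.997 and 9.45 (-1.11 ± 0.18, limma adjusted p = 0.0575; -0.81 against Control ACSF 3). With chip as a block Dusp16 passed, and in the value table it passed with 2 other genes of that list, Dusp8 and Spred1. Rps6, of the ribosomal protein list, also passed with chip as a block, with a difference of 0.57 (limma adjusted p = 0.0440). The value table also called 1 gene higher in each of the hypoxia and glycolysis, oxidative phosphorylation and proteasome lists and 1 lower in cholesterol synthesis.

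**Figure D5:**
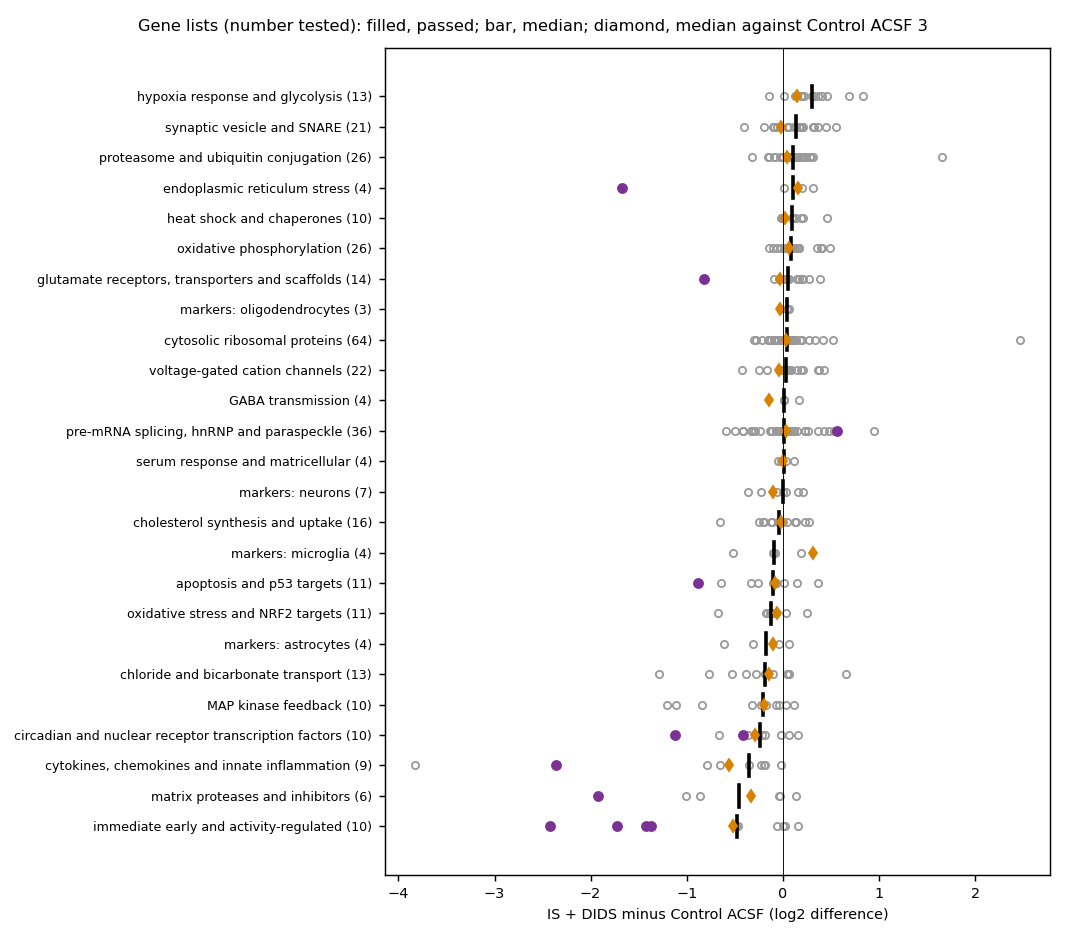
Log2 difference of IS + DIDS from Control ACSF (x axis) for each tested gene of the lists with at least 3 tested genes (y axis, number tested in brackets), each gene at its brightest probe. Filled points passed, bars are list medians and diamonds the medians against Control ACSF 3, and the immediate early genes have the lowest median (-0.48) and the hypoxia and glycolysis list the highest (0.30).

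The labelled tissue was checked with cell type markers. Some neuronal, astrocytic and oligodendroglial markers were bright and others were dim. Rbfox3, a neuronal nuclear protein, was at 12.73 to 12.94 in the controls and 13.04 and 12.92 in IS + DIDS. Gfap, the astrocyte filament, was at 14.16 to 14.27 and 14.05 and 13.78, and Mog, a myelin protein, at 12.58 to 12.89 and 13.17 and 12.52. The control means of Map2 (neurons), Slc1a2 (astrocytes) and Olig2 (oligodendrocytes) were only 8.73, 7.93 and 7.90. Map2 was at 8.31 and 8.42 in IS + DIDS, below all its controls (8.66 to 8.86), and did not pass (limma adjusted p = 0.42). Of the 7 neuronal markers 4 lay above control and 3 below. Their median difference was 0.004, and -0.24 with chip as a block. No marker passed among 7 of neurons, 4 of astrocytes, 4 of microglia and 3 of oligodendrocytes. The mean level of the neuronal list was 10.4 to 10.8 over the control arrays and 10.6 in both IS + DIDS arrays, that of the astrocyte list 11.6 to 11.8 and 11.4 to 11.6, and that of the microglial list 10.2 to 10.8 and 10.1 to 10.7. Dcn, a proteoglycan of fibroblasts and the 1 meningeal marker tested, was at 12.21 in IS + DIDS 3 and 11.13 in IS + DIDS 2, against 10.64 to 11.15 in the controls. No marker of endothelium or of choroid plexus was tested. The part of these markers in the gene differences was not tested.

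The largest fall among the probes that passed belonged to a probe with no gene name here, scl39282.4_366-S, at 12.34, 12.74 and 12.20 in the controls and 8.68 and 8.63 in IS + DIDS 2 and 3. It was lower still in ACSF + DIDS 2, at 8.22, and at 11.73 and 9.94 in IS. The difference of -3.78 ± 0.51 is 13.7-fold (limma adjusted p = 0.0401) and was -3.55 against Control ACSF 3. The largest rise among them, of probe scl31033.2.1_0-S, was 1.00 ± 0.11 (limma adjusted p = 0.0333; 1.22 against Control ACSF 3), from 8.55, 8.66 and 8.29 to 9.51 and 9.50, with 9.47 and 9.58 in IS. It was the 1 passing probe that was at least 2-fold higher.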

How the data were processed

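Total RNA was labelled and hybridised to Illumina Mouse-6 v1.1 BeadChips. Each array file gives, as a deposited intensity, a probe's brightness averaged over its beads, and it was not normalized between arrays, per the file headers, which name BeadStudio 2.3.47 (2.0 in the labels). The deposited detection columns hold a score from 0 to 1 against negative controls, near 1 where detected. The deposited value table holds linear intensity normalized by the authors in a way not given in the sources used here.

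Background correction and quantile normalization over the 9 distinct arrays used neqc (limma 3.58.1 under R 4.3.3, offset 16, negative controls inferred from the detection score), which returns log2 values. A probe was tested when its detection score exceeded 0.99 on 2 or more of 8 arrays. The fit (lmFit, eBayes, 1 coefficient per group) used Control ACSF 1 to 3, IS + DIDS 2 and 3, IS 1 and 3 and ACSF + DIDS 2, with 4 residual degrees of freedom. The number of arrays limits the precision. A gene below detection in a whole group has only a bound on its fold. Value table columns were fitted the same way on log2 values.

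For 9796 probes the zero-padded number in the name (from 10000 up) was read as a gene number and 9 by RefSeq accession, and 36823 stayed unnamed. Genes named were the 12 largest named rises and falls that passed with no overlap and the same direction against Control ACSF 3. Added to these were up to 3 members of each list by p, and 13 genes named whatever their values in this comparison. Some list members are not described. The members, lists and rule were chosen with earlier results of these data known. The pairing of replicate numbers was checked in the value table: the correlations of deviations of equal numbers were 0.27, -0.04 and 0.35, so the numbers were not taken to pair samples. The fit was tested on simulated data, and alternatives are given in the closing section.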

Additional observations from a re-analysis of the deposited data

How the results depend on the processing

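Counts below are probes past the threshold, 230 in the fit reported. The count was 80 with median centring, 50 with no detection filter, 122 with chip as a block, 1614 with arrayWeights, 872 at an adjusted p under 0.1, 124 with a fold of at least 1.5 added and 802 in the 12 columns of the value table. Array identity moved it: 3 with ACSF + DIDS 2 counted as IS + DIDS (its description names that treatment), 0 with IS + DIDS 2 counted as ACSF + DIDS (2046 at an unadjusted p under 0.05, limma) and 85 with the array titled both IS 2 and ACSF + DIDS 3 added as IS. Within chip 2 alone 0 passed, with 1 residual degree of freedom (3264 at an unadjusted p under 0.05). With a replicate block 0 passed (3399 at an unadjusted p under 0.05), and with IS + DIDS 3 numbered 1 in a replicate block 856 passed. The array added as ACSF + DIDS with chip as a block gave 138. Leaving out 1 array at a time gave 0 to 282, with 0 without IS + DIDS 2 (2107 at an unadjusted p under 0.05). The other settings of the array files, among them no background correction (237), an offset of 50 (236), detection on every array (220) and eBayes with trend and robust (242), stayed within 1.5 times in number. They include the fit without ACSF + DIDS 2, which equals the reported one. The probes called changed more than the counts. Of the 230, only 113 were called without background correction and 127 with trend and robust, against 229 with the offset of 50 and 195 with detection on every array. For the value table, whose settings were chosen after seeing the data, the count of 802 became 425 on the same 8 arrays, 253 on only the Control ACSF and IS + DIDS columns and 3778 with arrayWeights, 1055 with a block for chip 2 and 867 with a replicate block, and 267 to 720 with 1 column left out. None of the 98 genes run under the alternatives of the array files reversed direction while past the threshold, and Cxcl1, Sgk1, Nr4a3, Rgs2 and Klf2 were not among them. The cause of these changes was not tested. Low signals near background limit the size of differences, since neqc with an offset of 16 compresses them. The replicate block in the value table kept 718 of the 802 probes. Its block for chip 2 took the columns that matched no file to be off that chip, whose 6 positions other arrays fill.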
